A study of Mus musculus with 2 samples.

Results

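Lipoprotein lipase, 3 apolipoproteins, 5 scavenger receptors and a cholesterol exporter were compared between a culture of M/E cells expressing constitutively active MEF2C and its empty-vector control. The 10 genes were Lpl, Apoc1, Apoc2, Apoe, Msr1, Marco, Cd36, Scarb1, Olr1 and Abca1, of 27670 gene names on the array. They were taken by gene name, but the set was chosen by processed signals and differences of these same 2 arrays in earlier results, so their differences are given as a description. They were covered by 14 of 41174 probes, or 23 of 43379 spots, because the Apoe probe was printed 10 times.

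M/E cells are mouse bone marrow cells immortalised by MLL/ENL, a leukaemia fusion gene, and both cultures had the genotype Mef2c del/-. The MEF2C-ASR culture had received the retrovirus MYs-pMef2cASR, for a MEF2C mutated in histone deacetylase binding. The control culture had received the empty vector MYs-iPAC. Both were selected with puromycin and kept in medium with 10% FCS, 100 ng/ml SCF and 10 ng/ml each of GM-CSF, IL3 and IL6. RNA of 3 harvests, at 6, 24 and 48 h in fresh medium, was pooled per culture. Each group was thus 1 RNA pool on 1 one-colour Agilent array. There is no replicate to check a difference against, so no test was run, and directions hold for this pair of arrays.

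The share of spots well above background was 67.5% with MEF2C-ASR and 60.1% in the control. The lowest signal well above background was 19.98 on the MEF2C-ASR array and 38.3 on the control array, so a dim gene could be measured on the MEF2C-ASR array and not on the control array. Mef2c had a signal of 1969 with MEF2C-ASR and 795 in the control, a 2.54-fold difference (0.68 on the log2 scale with a dim second probe kept). Neither the extent of the deletion nor the part of Mef2c in the vector is given by the labels, so endogenous and introduced transcripts cannot be told apart here. All 9 progenitor and myeloid markers with a probe were well above background on both arrays. Differences are on the log2 scale, MEF2C-ASR minus control, after each array was scaled to its 75th percentile, and a gene was called higher or lower at 2-fold or more.

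Lipoprotein lipase is a secreted enzyme, held at the cell surface, that hydrolyses triglycerides of circulating lipoproteins. Apolipoprotein C-II is its cofactor, and apolipoprotein E is a ligand by which receptors take up lipoprotein remnants. Scavenger receptors are membrane proteins of several unrelated structures that bind modified lipoproteins, and in macrophages their uptake is balanced by export of cholesterol through ABCA1.

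Of the 10 genes 8 were measured on both arrays. Msr1 was higher with MEF2C-ASR (2.64), Apoc2 was lower (-1.48), and the other 6 were within 2-fold. Over all 16574 measured genes 1.74% were called higher and 1.91% lower. The remaining genes, Lpl and Cd36, were each well above background on 1 array alone and have only a bound, higher for Lpl and lower for Cd36. The median of the 8 was -0.20, beside -0.03 for all measured genes, and 6 of the 8 lay below 0, as did 55.2% of all measured genes. Marco, near 0, changed sign with spike-in scaling (-0.15), which shifted the median of all genes to -0.19, and with the percentile taken over probes well above background (-0.03). Of all genes called, 289 were higher and 316 lower, against 207 and 442 with spike-in scaling, and 203 and 109 with the brighter probes alone.

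Promoter windows, from 250 bases before to 50 bases after an annotated start, were matched by symbol to RefSeq sequences of GRCm38.p6. For 6 of the 10 genes 8 windows were found. Lpl, Msr1, Apoc1 and Scarb1 had none, so the genes higher by 2-fold or by a bound were not searched. Shown are those of Apoc2 and Cd36, the genes lower by 2-fold or by a bound with MEF2C-ASR, and for comparison that of Olr1, which was within 2-fold and holds matches to 2 of the motifs searched. The motifs were the MEF2 consensus, the PU.1 core GAGGAA, the AP-1 site TGANTCA, the liver X receptor element (a direct repeat with 4 bases between its copies) and TATAAA, searched on both strands. Capitals mark matches, which in Olr1 are GAGGAA on the opposite strand and then TGANTCA. The windows lie on the minus strand, at chr7:19677892-19678191 for Apoc2, chr5:17835847-17836146 for Cd36 and chr6:129507116-129507415 for Olr1, and read 5′ to 3′ along it.
Apoc2: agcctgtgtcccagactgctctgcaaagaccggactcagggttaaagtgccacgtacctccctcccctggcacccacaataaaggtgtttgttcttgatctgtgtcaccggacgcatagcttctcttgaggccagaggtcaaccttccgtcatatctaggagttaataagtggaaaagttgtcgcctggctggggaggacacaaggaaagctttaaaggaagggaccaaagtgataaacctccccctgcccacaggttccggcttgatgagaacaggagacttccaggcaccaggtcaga
Cd36: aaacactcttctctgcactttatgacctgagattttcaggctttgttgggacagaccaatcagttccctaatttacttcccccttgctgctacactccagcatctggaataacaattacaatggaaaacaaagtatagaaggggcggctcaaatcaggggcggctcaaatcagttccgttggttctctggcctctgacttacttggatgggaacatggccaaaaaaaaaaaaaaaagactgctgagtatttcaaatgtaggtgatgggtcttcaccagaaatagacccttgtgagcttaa
Olr1: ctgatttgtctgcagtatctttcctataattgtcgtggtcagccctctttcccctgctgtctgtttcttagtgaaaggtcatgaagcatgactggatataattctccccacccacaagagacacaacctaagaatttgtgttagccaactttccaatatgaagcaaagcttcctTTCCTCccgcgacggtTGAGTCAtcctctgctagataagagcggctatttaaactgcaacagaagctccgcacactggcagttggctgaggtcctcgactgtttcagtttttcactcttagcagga

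The Apoc2 and Cd36 windows held none of these motifs. The MEF2 consensus was in none of the 8 windows, and in 1.86% of all 32851 windows in the table. GAGGAA was in 4 of the 8, belonging to Apoe, Marco and Olr1, and in 28.3% of all windows. TGANTCA was in 1 of the 8, that of Olr1, and in 7.81% of all. TATAAA was in 2 of the 8, from Abca1 and from Apoe, where matches on opposite strands overlap, and in 13.6% of all. The liver X receptor element was searched with no mismatch allowed in its copies. In this exact form it was in none of the 8 and in 0.0152% of all, or 5 of 32851 windows. A form this rare would be missing from nearly any 8 windows. Its absence thus cannot decide whether a window holds a variant of the element, and variants were not searched. A match is a run of letters and was not tested as a binding site.

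Lpl was well above background with MEF2C-ASR alone, on both of its probes. The first, at chromosome 8, 67361126 to 67361185, had a signal of 209 with MEF2C-ASR and 13.4 in the control. The second, at 67355909 to 67355968, had a signal of 76.9 with MEF2C-ASR and 7.81 in the control. These positions are those in the array files, which name no genome build, and the exon a probe lies in was not analysed here. The scanner software gave the 2 control signals an error of 7.98 and 7.79, so they set no level. Lpl was at least 5.58-fold higher with MEF2C-ASR by the first probe and at least 2.06-fold higher by the second. Of 2201 genes well above background with MEF2C-ASR alone, 3.82% had a bound of 2-fold or more. A bound as large as that of Lpl was found for 8 of them, Lpl included. With normexp background correction, with an offset of 50 added to the signals, the bound was 1.80 on the log2 scale in place of 2.48.

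**Figure D1:**
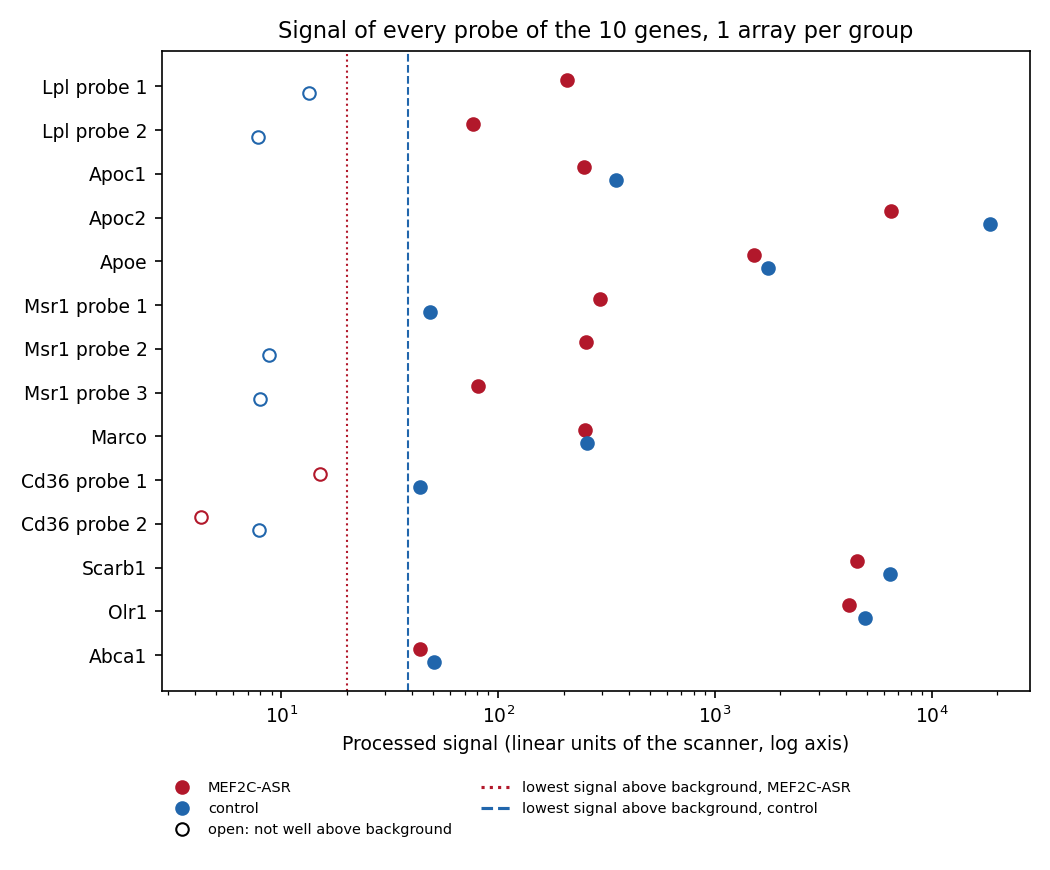
Processed signal of each probe of the 10 genes on the MEF2C-ASR array (red, upper point) and the control array (blue, lower point), in scanner units on a log axis. Open points were not well above background, and vertical lines mark the lowest signal well above background, 19.98 with MEF2C-ASR and 38.3 in the control. The probes of Lpl and Msr1 lie to the right with MEF2C-ASR, and both points of Marco and of Abca1 lie close together.

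Of 11 measured partners of the lipase and related lipases 2 were higher and none lower, beside 1.74% and 1.91% of all measured genes, and their median was 0.23. Gpihbp1, which carries the enzyme across capillary endothelium, had a signal of 303 with MEF2C-ASR and 343 in the control (-0.15). Lmf1, needed to fold the enzyme, had 3122 with MEF2C-ASR and 4323 in the control (-0.43). Angptl4, a secreted inhibitor, had 10560 with MEF2C-ASR and 12579 in the control (-0.22). These 3 were named after their values were seen, and each was within 2-fold. The 2 higher genes were Lipg and Sdc1. Lipg, endothelial lipase, which acts mainly on phospholipids of high-density lipoprotein, had 1102 with MEF2C-ASR and 377 in the control (log2 1.59). Sdc1, a heparan sulfate proteoglycan of the cell surface, had 90.3 with MEF2C-ASR and 42.7 in the control (2.17-fold). The control signal of Sdc1 was near the background limit, and its difference was 0.51 with normexp at offset 50, 0.68 at offset 16 and 0.96 with spike-in scaling.

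Apoc2 was lower with MEF2C-ASR and bright on both arrays. Its probe was placed at chromosome 7, 17353942 to 17353966, a span of 25 bases, against 60 for most probes of the 10 genes. It had a signal of 6512 with MEF2C-ASR and 18600 in the control, a 2.79-fold difference. The difference exceeds the spotting error at this brightness, an SD of 0.05 for a probe with 1 spot, from 97 repeatedly printed probes with a level of -2 or more. That error leaves out variation between cultures and between labelling reactions. Among the brightest 25% of measured genes 0.145% were called lower, and 4 of 4144 lay as low as Apoc2, itself included. The RefSeq table lists a read-through gene, Gm44805, over Apoc2 and Apoc4, so this 1 probe may not measure Apoc2 alone. Over 11 alternative settings the difference lay between -1.63 and -1.46.

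Apoe and Apoc1, of the same gene cluster, were within 2-fold. The Apoe probe, at chromosome 7, 17378757 to 17378816, had 7 spots free of outlier flags. Their signals ran from 1479 to 1547 with MEF2C-ASR (median 1495), against 1743 to 1795 in the control (median 1756). These 2 sets of spots did not overlap, and the difference was -0.19 ± 0.03 (SD over 7 spots of 1 array pair). Of all measured genes 25.3% lay as low as Apoe. Spots repeat the hybridisation and not the culture. With all 10 spots kept, the sets overlapped, from 1418 to 1831 with MEF2C-ASR and from 1721 to 1858 in the control. Of these 10 spots 9 were lower with MEF2C-ASR, and the mean was -0.16. Apoc1, which encodes an inhibitor of lipoprotein uptake, had 249 with MEF2C-ASR and 349 in the control (-0.45), at chromosome 7, 17371881 to 17371940. The spotting SD was 0.25, pooled over 53 repeatedly printed probes with a level below -2. Apoc1 lay near the bright end of that range.

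**Figure D2:**
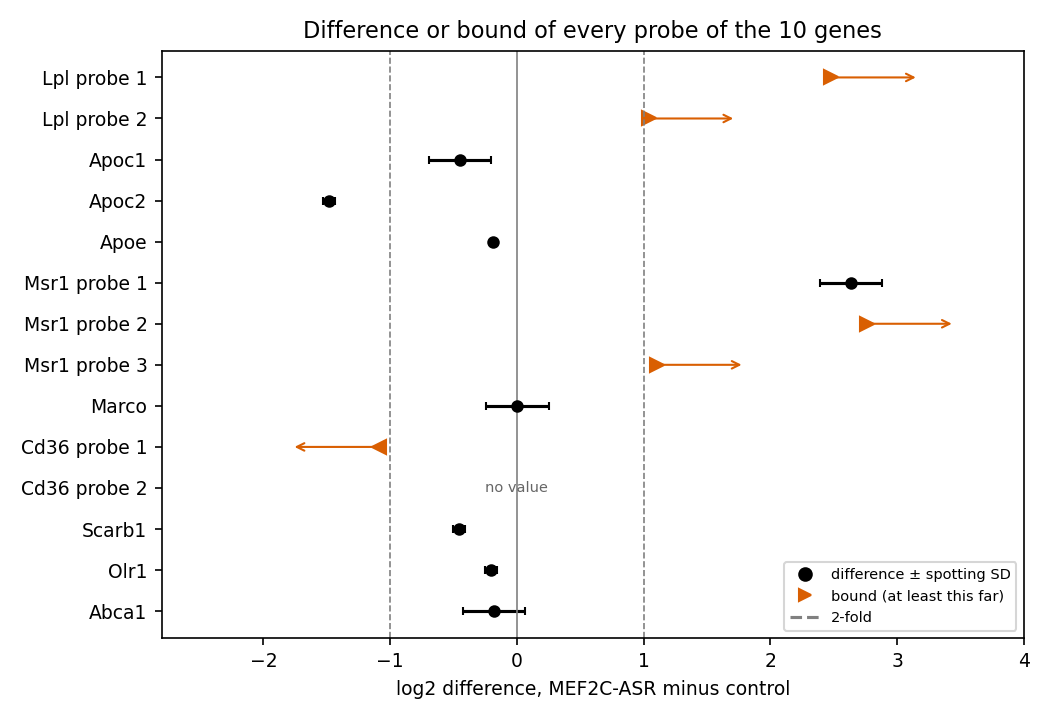
Log2 difference of each probe of the 10 genes, MEF2C-ASR minus control, with the spotting SD as error bar. For Apoe that SD is divided by the square root of its 7 kept spots. Triangles with arrows are bounds, dashed lines mark 2-fold, and the second Cd36 probe has no value. Apoc2 lies left of the 2-fold line, and every probe of Lpl and Msr1 lies right of it.

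In a list of 14 other apolipoprotein genes, which also holds the mRNA-editing enzyme Apobec1, 5 were measured, Apobec1 included. Of these 1 was higher and 1 lower, beside 1.74% and 1.91% of all measured genes. Saa3, an acute-phase apolipoprotein made by macrophages and adipocytes, had 5559 with MEF2C-ASR and 1751 in the control (3.25-fold higher). Clu, clusterin or apolipoprotein J, had 43.4 with MEF2C-ASR and 174 in the control (3.91-fold lower). Clu was dim with MEF2C-ASR, and normexp at offset 50 gave -1.097 in place of -1.97 and offset 16 gave -1.42. Its call was made in the dimmest part of the range, where lower calls were most frequent, at 5.16% of the dimmest 25% of genes. Of the other 9, 4 were well above background on neither array.

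Msr1, the class A receptor SR-A of macrophages, was the highest of the measured genes of the set. Its first probe, at chromosome 8, 38396605 to 38398766 (a span of 2162 bases), had 295 with MEF2C-ASR and 48.5 in the control (6.23-fold). The second, at 38414609 to 38414668, had 254 with MEF2C-ASR and 8.74 in the control, and the third, at 38394471 to 38394530, had 80.5 with MEF2C-ASR and 7.95 in the control. Neither was well above background in the control, and their bounds were at least 6.80-fold and at least 2.15-fold higher. All 3 probes thus went the same way. Of all measured genes 10 were as high as Msr1, itself included, and in the dimmest 25%, where 2.29% were called higher, none but Msr1. A gene with so large a difference falls in that part only if it is dim in the control. Genes not well above background in the control have only a bound and were not ranked. The rank in the dimmest 25% thus says little about rarity. The control signal of the first probe carried an error of 9.19 by the scanner software. Normexp gave Msr1 1.67 at offset 50 and 2.01 at offset 16, and with all probes kept it was 3.64.

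Marco, the other class A receptor of the set, did not share this difference. Its probe, at chromosome 1, 120342087 to 120342147, had a signal of 251 with MEF2C-ASR and 257 in the control. The difference was 0.00, against a spotting SD of 0.25 pooled over probes with a level below -2.

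**Figure D3:**
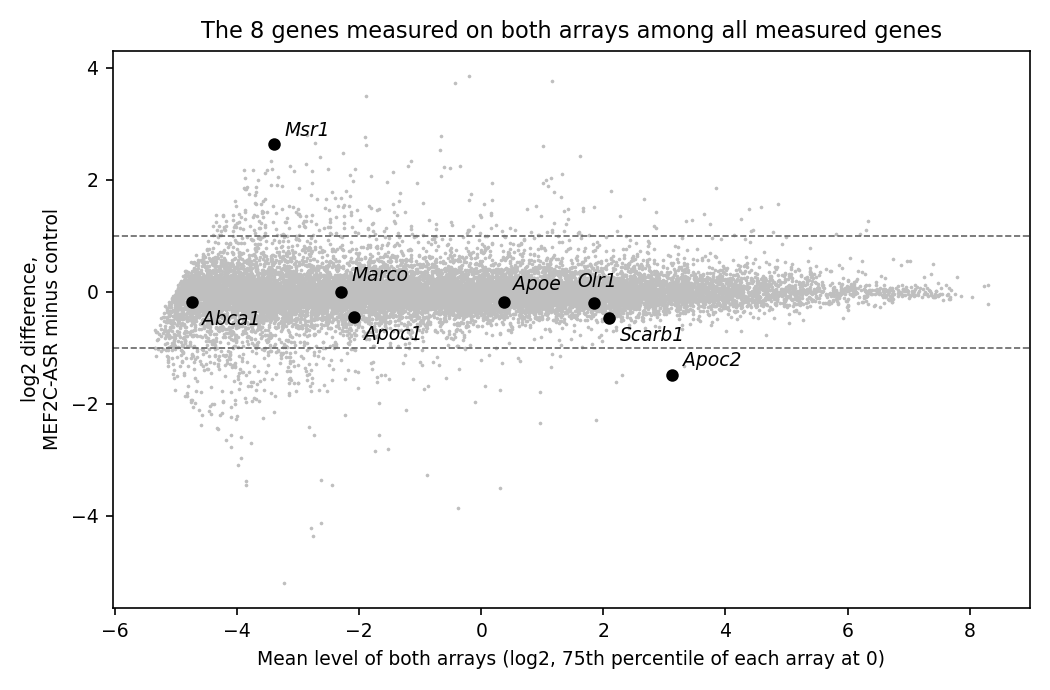
Log2 difference, MEF2C-ASR minus control, against the mean level of both arrays for all 16574 measured genes (grey) and the 8 measured genes of the set (black). Dashed lines mark 2-fold. Apoc2 stands below nearly all genes of its brightness and Msr1 above those of its own, while the other 6 lie within the grey band.

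Among class B receptors, Cd36, a receptor for oxidised lipoproteins and long-chain fatty acids, was well above background in the control alone. Its first probe, at chromosome 5, 16796301 to 16796360, had 15.01 with MEF2C-ASR and 43.5 in the control, a bound of at least 2.12-fold lower. The second, at 16796811 to 16799243 (a span of 2433 bases), had 4.27 with MEF2C-ASR and 7.85 in the control. It was well above background on neither array. Of 187 genes seen in the control alone 97.3% had a bound of 2-fold or more, and 170 of them lay as low as Cd36. Normexp at offset 50 gave -0.32 and offset 16 gave -0.51, below 2-fold. Scarb1, the receptor for high-density lipoprotein, was bright, with 4533 with MEF2C-ASR and 6389 in the control (-0.46), at chromosome 5, 124511540 to 124511599. It was within 2-fold, and 80 of 4144 genes of the brightest 25% lay as low, itself included.

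Olr1, the class E receptor LOX-1 for oxidised low-density lipoprotein, had 4139 with MEF2C-ASR and 4891 in the control (-0.20), at chromosome 6, 129508610 to 129508669. In the same brightest 25%, 14.9% of genes lay as low. Abca1, the exporter, was dim, with 43.7 with MEF2C-ASR and 50.6 in the control (-0.18), at chromosome 4, 53044891 to 53044950. Its difference was within the spotting SD of 0.25 for dim probes.

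Among 93 other genes of lipoprotein handling, 70 were measured, of which 4 were higher (5.71%), 1 was lower (1.43%) and 65 were within 2-fold. Over all measured genes the shares were 1.74% higher and 1.91% lower. Their median was 0.02, with 36 above 0 and 34 below. The list was written with earlier results known, and the counts describe these 2 arrays. Spike-in scaling left 2 higher and 2 lower. Besides Lipg, Sdc1 and Saa3, the higher gene was Clec7a, the beta-glucan receptor dectin-1, which the list holds among other scavenger receptors. Clec7a had 2059 with MEF2C-ASR and 959 in the control (2.20-fold, and 0.98 on the log2 scale with spike-in scaling). Ch25h, which makes 25-hydroxycholesterol, was seen with MEF2C-ASR alone, at 106 with MEF2C-ASR and 20.2 in the control, a bound of at least 2.84-fold (on the log2 scale 0.90 with normexp at offset 50 but 2.43 when dim probes were kept).

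Receptors of the low-density lipoprotein family and their partners were all within 2-fold, 10 measured genes from -0.24 to 0.42. Of all 16574 measured genes 15969 were called neither higher nor lower. A short list with none past 2-fold is thus no result about its role. The receptor chaperone Lrpap1 differed by 0.05. Of 8 measured genes of fatty acid uptake and binding none passed 2-fold, and the acyl-CoA synthetases Acsl5 and Acsl4 differed by -0.05 and 0.01. None of 15 measured transcriptional regulators passed 2-fold either. Their median was -0.16, with 5 above 0 and 10 below. The furthest from 0 was Ppard, at 46.7 with MEF2C-ASR and 89.1 in the control (-0.89). Srebf1 and Scap, of the sterol response, differed by -0.29 and -0.09. Nr1h3, the liver X receptor that drives Abca1, differed by -0.49, and Pparg, a nuclear receptor that drives Lpl and Cd36 in fat, had 1192 with MEF2C-ASR and 2042 in the control (-0.74). Ppard, Nr1h3 and Pparg were named after their values were seen.

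**Figure D4:**
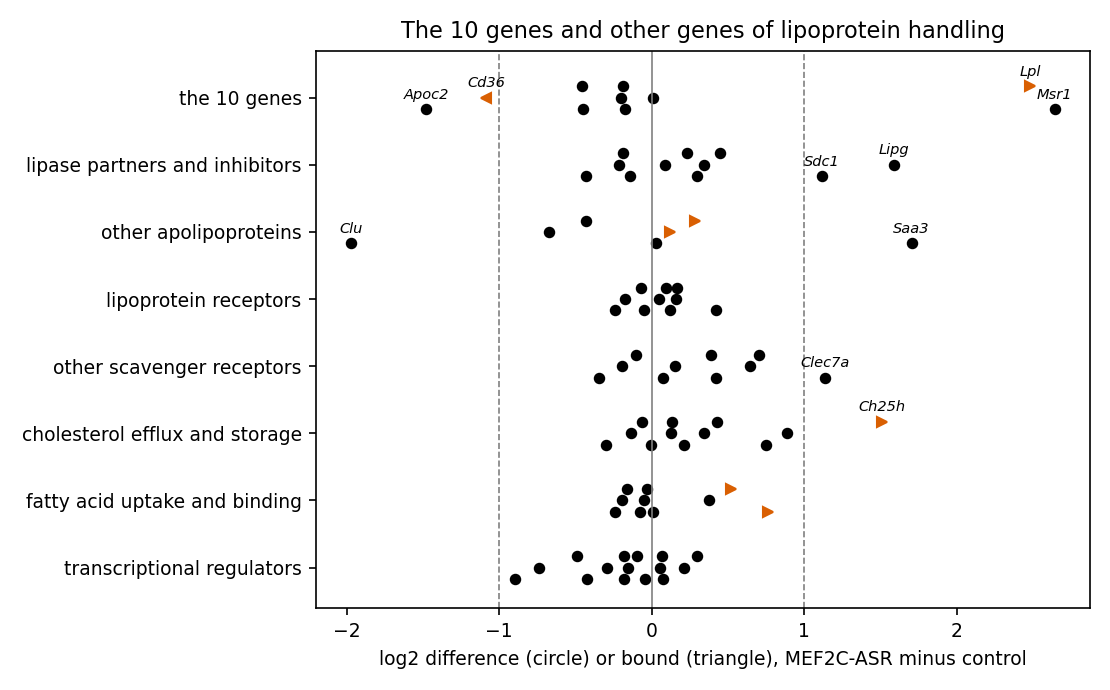
Log2 difference (circles) or bound (triangles), MEF2C-ASR minus control, of the 10 genes in the top row and of the other genes of lipoprotein handling by role. Genes at least 2-fold apart are named, and dashed lines mark 2-fold. The rows of lipoprotein receptors, fatty acid genes and transcriptional regulators have no gene past the lines. Of all 16574 measured genes 15969 were called neither higher nor lower.

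Markers of other cell types were read beside these values, because in RNA of a whole culture more cells of a type and more RNA per cell cannot be told apart. Of 12 macrophage markers 8 were measured, 6 of them above 0, with a median of 0.69. Trem2, a lipid-sensing receptor, had 1123 with MEF2C-ASR and 102 in the control (11.3-fold higher), and Csf1r, the receptor for macrophage colony-stimulating factor, had 1589 with MEF2C-ASR and 496 in the control (3.08-fold higher). The summed signal of the macrophage markers was 170730 with MEF2C-ASR and 103930 in the control, most of it from Lyz2. Mertk and C1qc were well above background on neither array. The 2 measured markers below 0 were Fcgr1, with 1025 with MEF2C-ASR and 1563 in the control (-0.51), and C1qb, with 259.8 with MEF2C-ASR and 282 in the control (-0.08). Trem2 and Csf1r lay in the direction of Msr1 and Lpl, Fcgr1 did not, and the part of these markers in those results was not tested. All 9 measured progenitor and myeloid markers were above 0, with a median of 0.42 and a summed signal of 277280 with MEF2C-ASR and 170930 in the control. Mpo, the neutrophil granule enzyme myeloperoxidase, gave the largest part of these sums, with 143030 with MEF2C-ASR and 68289 in the control, and alone was past 2-fold (1.103, and 0.95 with spike-in scaling).

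Markers of other tissues were in part measured. Beside the counts below, 15969 of all 16574 measured genes were called neither higher nor lower. Of 8 adipocyte markers 3 were measured and none was past 2-fold, with a summed signal of 1879 with MEF2C-ASR and 2648 in the control, mostly Pparg. Adipoq and Lep, made by fat cells, were well above background on neither array. No liver marker was measured on both arrays, Alb and Ttr were well above background on neither, and the sum was 87.2 with MEF2C-ASR and 91.9 in the control. Endothelial and stromal markers summed to 804 with MEF2C-ASR and 922 in the control, with Cdh5 and Kdr well above background on neither. In that list Pdgfrb was lower (-1.81, and -0.75 with normexp at offset 50). Of 5 muscle markers 4 were measured, none past 2-fold, with a sum of 2370 with MEF2C-ASR and 2152 in the control. Most of it came from the actin gene Actc1, with 2165.9 with MEF2C-ASR and 1907 in the control. Steroid-forming cell markers summed to 1799 with MEF2C-ASR and 1444 in the control, with none past 2-fold. In that list Cyp11a1 had 946 with MEF2C-ASR and 638 in the control, and Cyp17a1 had 803 with MEF2C-ASR and 768 in the control. Fcgr1, C1qb, Lyz2, Actc1, Cyp11a1 and Cyp17a1, like Apobec1 above, were named after their values were seen.

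**Figure D5:**
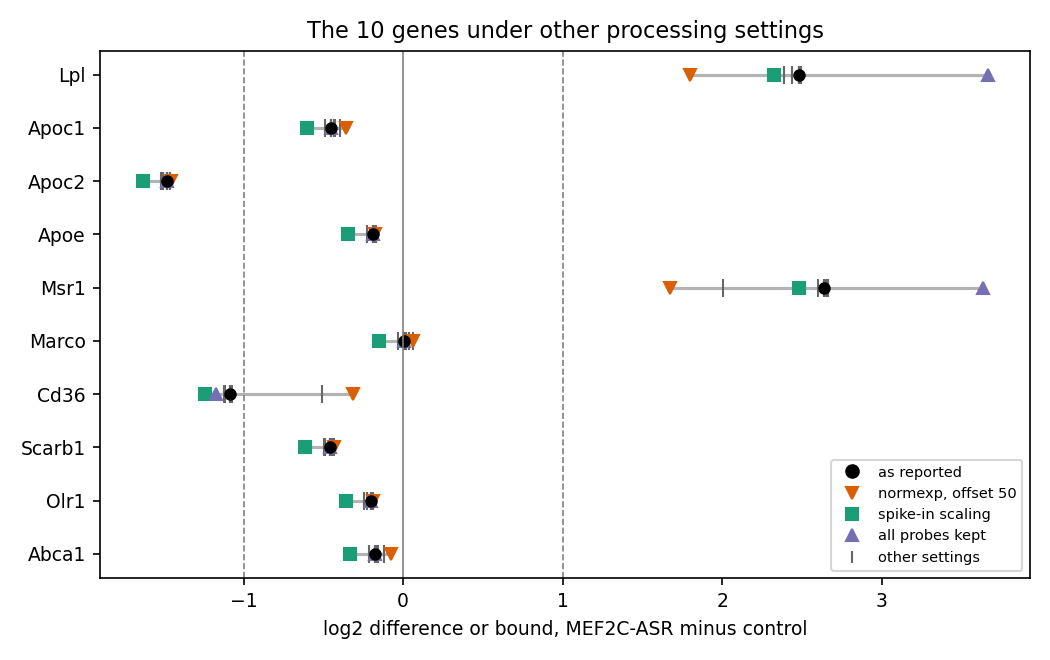
Log2 difference or bound of the 10 genes, MEF2C-ASR minus control, as reported (black) and under the alternative settings. Dashed lines mark 2-fold. Lpl and Msr1 stay right of the line and Apoc2 left of it wherever they have a value, and Cd36 crosses it with normexp.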

How the data were processed

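Total RNA of 2 cultures was amplified to Cy3-labelled cRNA, per the labels' protocols. The deposited values are spot intensity values made with Agilent Feature Extraction 9.5.1.1, per the file headers, which subtracted background and set the flags used here. Both arrays lay on 1 slide in 1 scan. The authors' deposited value table holds the same intensity values, with medians of 83.2 for MEF2C-ASR and 85.8 for the control, neither centred nor on a log scale.

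Processed signals were taken to log2 from these deposited intensities, less the log2 of each array's 75th percentile over non-control spots, 1240.3 for MEF2C-ASR and 1271.7 for the control. Spots with outlier flags on either array (201 and 202 such spots) were left out, and spots of a probe were averaged. Probes were named through RefSeq (GRCm38.p6), 22951 through their accession and 6659 through a current symbol, with 3109 older symbols updated and 8455 names left as in the file. A gene's value is the mean over probes well above background and unsaturated on both arrays, and a call needs 2-fold with all its probes of 1 sign. Where 1 array alone was well above background, the bound compares the brighter level with that of the dim probe or with the dim array's lowest level well above background, whichever is higher. The number of arrays limits every value.

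The 10 genes, the lists and the rules were chosen with earlier results of these data known. Named are the 10 genes, Mef2c, Hprt (a housekeeping gene, difference 0.02), lipoprotein-handling genes past 2-fold or, in a role with none, the 2 of highest level, and up to 3 markers a list past 2-fold. With 1 array per group there was no test. The 11 alternatives changed background correction (normexp), scaling, the dim-probe filter, spot flags, the probe chosen per gene and probe naming. Normexp was fitted without spots flagged as background outliers (916 with MEF2C-ASR and 687 in the control), since with them the fitted background mean of the control array was -905.34. Steps were tested on simulated data with differences well past 2-fold and equal noise at all levels. Bounds and the larger noise of dim probes were not simulated. Protein sequences were not used here, and values of some listed genes are not reported here. R 4.3.3, limma 3.58.1, Python 3.11.15, numpy 2.4.6, pandas 2.3.3 and matplotlib 3.10.9 were used.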

Additional observations from a re-analysis of the deposited data

How the results depend on the processing

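No paired analysis was possible because each group has 1 array, and for the same reason no array could be left out. Under the 11 alternatives no named member or lipoprotein-handling gene past 2-fold changed direction. With all probes kept, 790 genes were higher and 980 lower, of the 10 genes 2 were higher (Lpl and Msr1) and 2 lower (Apoc2 and Cd36), and 9 lipoprotein-handling genes were higher. With the brighter probes alone 109 genes were lower, none of the 10 genes was higher (0) and 0 lipoprotein-handling genes were lower, since Lpl, Msr1, Cd36, Abca1, Sdc1, Clu and Ch25h then have no value. With normexp 161 genes were higher and 122 lower at offset 50, and 186 lower at offset 16. With spike-in scaling 2 lipoprotein-handling genes were higher and 2 lower. Spike-in scaling subtracts a constant from each array, so it moved all differences by the same amount. Normexp adds its offset to every signal, which draws the differences of dim probes toward 0. What else enters the shifts with normexp, and why the spike-in signals differed between the arrays, was not tested. Lpl lay between 1.80 and 3.66 and Msr1 between 1.67 and 3.64 over 10 alternatives each, past 2-fold in all 10. Cd36 lay between -1.24 and -0.32 and was past 2-fold in 8 of 10, but not with normexp at either offset. Of genes seen in the control alone 97.3% had a bound of 2-fold or more, so that count says little about Cd36. Signal over background limits the values of Lpl, Cd36 and Abca1 and of the Msr1 probes dim in the control.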

Other observations

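The neighbours of the apolipoprotein cluster on chromosome 7 were read after the values of the cluster were seen. In order along the chromosome, Zfp296 differed by -0.07, Clasrp by -0.06, Relb by 1.07 and Clptm1 by -0.03 on the side of Apoc2. Relb, an NF-kB subunit, had a signal of 3162 with MEF2C-ASR and 1545 in the control, and differed by 0.91 with spike-in scaling. Between Apoc2 and Apoc1 lies Apoc4, which had 40.6 with MEF2C-ASR and 18.0 in the control, not well above background there, with a bound of 0.12. On the side of Apoe, Tomm40 differed by -0.07, Nectin2 by -0.16, Bcam by -0.32 and Cblc by -0.10. Apoc2 was the one gene of this stretch past 2-fold in the lower direction.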
